A study of Saccharomyces cerevisiae with 12 samples.

Results

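Poly(A) sites that lie far downstream of the stop codon were collected from the 3′ READS profiles of 2 yeast strains. These sites were selected on their own values: an ORF had to have a signal of at least 10 RPM (reads scaled to library size) in the 400 nt after its stop codon in both profiles and no other listed feature on its strand in those 400 nt, and a nucleotide 300 to 400 nt after the stop codon had to reach 20% of the ORF's highest position in either profile. Of 5798 ORFs in the profiles, 3746 reached the signal in both strains and 2811 of these had no listed neighbour. In these 2811 ORFs, 1128 nucleotides of 414 genes met the criterion, so 14.7% of the ORFs held a distal site (95% Wilson interval 13.5% to 16.1%, over ORFs). The position values chose the sites, and how many sites there are and how high they stand is therefore a description with no test.

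Budding yeast (Saccharomyces cerevisiae) was grown at 30 °C in rich medium to mid-log phase. The ubp8Δ strain carried UBP8::HIS3 and the rpb4Δ strain carried RPB4::HIS3, and both also carried the RPB3::RPB3-3xFLAG NAT allele. Ubp8 removes ubiquitin from histone H2B as part of SAGA, a coactivator complex. Rpb4 belongs to RNA polymerase II (Pol II), where it forms a dissociable pair with Rpb7. Each strain was sequenced in 2 biological replicates that the authors pooled into 1 profile, so no value below has a replicate error, and the strain cannot be told apart from its pooled library. The NET-seq samples of the series were not analysed here, and no profile of a strain without a deletion was used.

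The 3′ end of a yeast mRNA is made by cleavage of the nascent RNA and addition of a poly(A) tail. The cleavage and polyadenylation machinery reads several loosely defined, A- and U-rich elements. An efficiency element of the UAUAUA type, bound by Hrp1, lies upstream of an A-rich positioning element, and U-rich stretches flank the cut. Most genes are cut at many neighbouring nucleotides, and a distal site gives an mRNA with a long 3′ UTR, the untranslated part that can carry signals for localization, translation and decay.

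The sequences at 12 of the sites with the most signal or in the genes that used the distal zone most are shown first, because they show both the nucleotide that was counted and what lay upstream of it. Each is the sense strand of the R64 reference genome, 5′ to 3′, from 20 nt upstream of the site to 9 nt downstream. Capitals mark the mapped nucleotide and the genomic As that follow it directly. All terminal As of a read are removed before it is placed, so the mapped nucleotide is the last one other than A, and the cut itself may lie within those As.
HAC1, 397 nt after the stop codon, chrVI:76524-76553, plus strand: gaattcttgatgtatgccctTAggttgggc
SED1, 309 nt, chrIV:602098-602127, plus strand: tagttcttaattctttaataCAAActtatt
HST2, 323 nt, chrXVI:525478-525507, minus strand: tcaatgcagccaattcatctCAAtactgcg
RPL8A, 384 nt, chrVIII:34862-34891, minus strand: ccatatcggattgatgctggGAAgaagttc
YDR524C-B, 337 nt, chrIV:1489252-1489281, minus strand: taatagaattttctgatgttTAtctttttt
HSP150, 314 nt, chrX:121984-122013, plus strand: taaaatgttaaaaagacttgGAAAgcaacg
NCE102, 384 nt, chrXVI:830803-830832, plus strand: aaagtatccttctctttgtcTAgttttact
ATG38, 363 nt, chrXII:563420-563449, minus strand: aaatgaaatatgatccttccGAAAccaaaa
GUT2, 345 nt, chrIX:51405-51434, minus strand: atcgttttaattatccccttTAtctctagt
SSY5, 390 nt, chrX:126454-126483, minus strand: ataaaactatcctttttgttCActctgtct
IMO32, 310 nt, chrVII:547759-547788, plus strand: gagataaagcctcgttcgttCtctccattt
TPM2, 345 nt, chrIX:88876-88905, minus strand: taatttaatttccactttctTAAtatcagt

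An element of the TATATA type is the letters TATATA, or the variant spelled TACATA, or the further variant spelled TATGTA, on the sense strand with all its bases 10 to 70 nt upstream of the site. The sites with the most signal and the genes with the largest distal share gave 18 sites by rule, of which 12 are printed, and 9 of the 18 had such an element. These were 8 of the 12 printed and PUS2 among the 6 not printed, which are SRD1, RPB10, YBR085C-A, SWM1, TAX4 and PUS2. The runs below give the element in capitals with 7 bases on each side, in the same genome and orientation, because these are the letters behind the element counts given further on.
HAC1, last base of the element 31 nt upstream of the site, chrVI:76501-76520: attttttTATATAaaactat
SED1, 41 nt upstream, chrIV:602065-602084: taattctTATATAatcatca
HST2, 47 nt upstream, chrXVI:525527-525546: ctcagaaTATATAgataagt
ATG38, 35 nt upstream, chrXII:563457-563476: aatatgaTATATAtcttcta
GUT2, 47 nt upstream, chrIX:51454-51473: tataatcTATATAatcattg
SSY5, 45 nt upstream, chrX:126501-126520: ttcacagTATATAatatatt
IMO32, 40 nt upstream, chrVII:547727-547746: gtatgtaTATATAgcaaaga
TPM2, 41 nt upstream, chrIX:88919-88938: cgagaaaTACATAtgcatat
In RPL8A, YDR524C-B, HSP150, NCE102, SRD1, RPB10, YBR085C-A, SWM1 and TAX4 none of the 3 spellings was found in that stretch, which says only that these letters are not in it.

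The profiles differed in depth. The step that separates the RPM values was 0.0614 RPM in ubp8Δ and 0.395 RPM in rpb4Δ, and it was taken as the value of 1 read, so 10 RPM stood for about 163 reads in ubp8Δ and 25.3 reads in rpb4Δ. The windows of the 414 genes held between 169 and 36101 reads in ubp8Δ, with a median of 731.5, and between 26 and 13098 reads in rpb4Δ, with a median of 114. The deleted genes matched the labels: the UBP8 ORF had 0 reads in ubp8Δ, where 3 reads would be 0.184 RPM, and 12 reads in rpb4Δ, and the RPB4 ORF had 244 reads in ubp8Δ and 0 in rpb4Δ, where 3 reads would be 1.19 RPM. The windows after these ORFs were not empty where the ORF is deleted. UBP8's window held 9.2 RPM in ubp8Δ and 20.17 RPM in rpb4Δ. For RPB4 the window values were 169.62 RPM in ubp8Δ and 30.08 RPM in rpb4Δ. RPB4 therefore met the criteria and stayed among the 2811 ORFs, without a distal site, whereas UBP8 did not meet them. The source of this window signal was not tested. Reads without identifiers of the original molecule are not independent molecules. All intervals therefore cover counting error only, or the spread over genes or sites, and never the spread between cultures.

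Sites became rarer with distance, and the distal zone was the thin end of this decline. In either profile, 35.8% of the 2811 ORFs had a site of at least 20% at 81 to 100 nt after the stop codon, 20.2% at 181 to 200 nt, 8.22% at 281 to 300 nt, and 3.81% at 381 to 400 nt. Within the zone, 281 sites lay at 300 to 319 nt, which is 14.05 per nucleotide, and 183 lay at 380 to 400 nt, which is 8.71 per nucleotide. The zone has no natural border: the last nucleotide before it had such a value in 16 ORFs, against 14 at 300 nt, and 6 sites lay on the last measured nucleotide. Ends further downstream than 400 nt are outside the profiles.

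**Figure D1:**
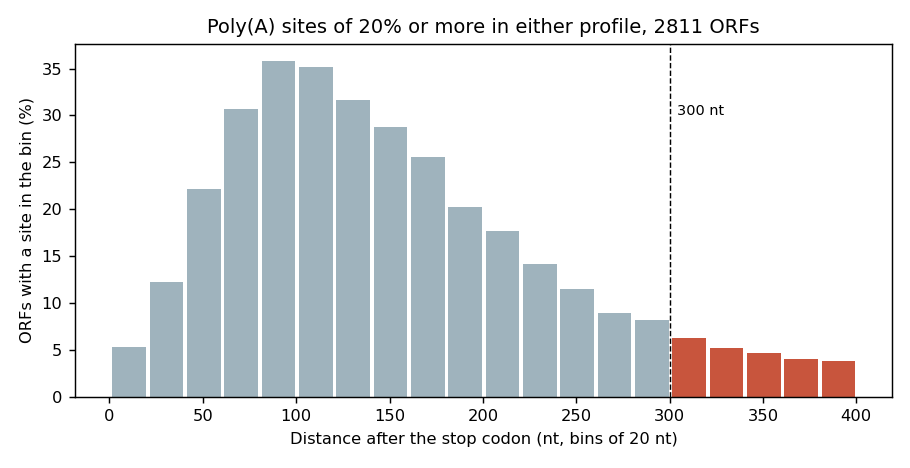
Percent of the 2811 ORFs (y axis) with a nucleotide of at least 20% of the highest position in either profile, in bins of 20 nt after the stop codon (x axis). Bars from 301 nt on are coloured. The bars peak at 35.8% at 81 to 100 nt and fall to 3.81% in the last bin.

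The sites came in groups. Of the 414 genes, 161 had 1 distal site, 209 had 2 to 5 and 44 had 6 or more, up to 12. Neighbouring sites of a gene were a median of 5 nt apart, and 70.4% of 714 such gaps were 10 nt or less (67.0% to 73.7%). When sites at most 10 nt apart were joined, 625 groups were left, and 262 genes had a single group. No nucleotide was counted in the windows of more than 1 ORF.

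Most of these genes also used sites closer to the stop codon. In 369 genes a nucleotide nearer than 300 nt also reached 20% in either profile, and only 45 genes (10.9%, interval 8.22% to 14.2%) had none. The distal share, the part of a gene's window signal that fell at 300 to 400 nt, had a median of 21.3% in ubp8Δ (18.8% to 24.8%) and 24.7% in rpb4Δ (19.9% to 29.4%) over the 414 genes, against 0% in both strains over all 2811 ORFs. In the 45 genes without a nearer site the medians were 93.8% and 97.3%, and in the other 369 they were 18.6% and 19.5%. The rule selected on this signal, so these shares describe the genes and test nothing. In reads, the 414 genes held 241377 of the 283591 distal reads of all 2811 ORFs in ubp8Δ (85.1%) and 44420 of 49917 in rpb4Δ (89.0%). Distal reads were 2.95% and 3.52% of all window reads of these ORFs.

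Several genes were cut almost only in the distal zone, and in the same place in both strains. HAC1, which encodes the transcription factor of the unfolded protein response, had 7713 window reads in ubp8Δ and 1269 in rpb4Δ, and its distal share was 96.5% (95% Wilson interval on reads 96.1% to 96.9%) and 99.2% (98.6% to 99.6%). The nucleotide at 397 nt was the highest in both profiles, with 4589 reads in ubp8Δ, 59.5% of the window, and 834 reads in rpb4Δ, 65.7% of the window. A second HAC1 site at 389 nt stood at 21.03% of it in ubp8Δ and 12.35% in rpb4Δ. With the main site 3 nt from the end of the window, any HAC1 ends beyond 400 nt were not seen.

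NCE102, a transmembrane protein with a role in the secretion of proteins that lack a classical signal, had its highest position at 384 nt in both profiles. That nucleotide held 1824 of 3135 reads in ubp8Δ (58.2%) and 287 of 532 in rpb4Δ (53.9%), and the distal share was 96.2% and 98.3%. ATG38, a subunit of the autophagy-specific phosphatidylinositol 3-kinase complex, had 1399 of 2280 reads at 363 nt in ubp8Δ (61.4%) and 121 of 238 in rpb4Δ (50.8%). Its distal share was 100% and 99.6%, so almost no read lay nearer to the stop codon. SRD1, a zinc finger protein involved in pre-rRNA processing, had adjacent sites at 348 and 352 nt with 1462 and 1161 reads in ubp8Δ and 598 and 514 reads in rpb4Δ. The SRD1 distal share was 92.9% and 90.6%.

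The remaining genes with the largest lower share of the pair of profiles, among the 231 with at least 100 reads in both, had a distal share between 97.5% and 100% throughout. SWM1, a subunit of the anaphase-promoting complex, had 5 sites from 308 to 373 nt, with the highest at 313 nt in both strains (445 reads in ubp8Δ and 90 in rpb4Δ). PUS2, a pseudouridine synthase of mitochondrial tRNA, had 4 sites between 344 and 350 nt, with the maximum at 344 nt in ubp8Δ and at 348 nt in rpb4Δ. GUT2, the mitochondrial glycerol-3-phosphate dehydrogenase, had its highest site at 345 nt with 270 of 568 reads in ubp8Δ and 89 of 138 in rpb4Δ. SSY5, the protease of the amino acid sensor of the plasma membrane, peaked at 390 nt, TAX4, an EH domain protein that regulates phosphatidylinositol 4,5-bisphosphate levels, at 377 nt, and TPM2, the minor tropomyosin, at 345 nt, each in both strains. IMO32, a mitochondrial protein of unknown function, peaked at 310 nt in both, with 561 reads in ubp8Δ and 110 in rpb4Δ, and nearly as high at 315 nt, with 552 and 96 reads. With ATG38 counted, 8 genes were taken by this share, and in 7 of these 8 the highest nucleotide was the same in both strains.

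Across the 414 genes the highest nucleotide of the whole window lay in the distal zone in both profiles for 111 genes, only in ubp8Δ for 25, only in rpb4Δ for 38 and in neither for 240. Of the 136 genes whose highest nucleotide was distal in ubp8Δ, 81.6% had it there in rpb4Δ too (74.3% to 87.2%). Of the 149 in rpb4Δ, 74.5% had it there in ubp8Δ (66.9% to 80.8%). The same nucleotide was highest in 77 of the 111 genes (69.4%, 60.3% to 77.2%), and 95 were within 10 nt. Among the 2637 ORFs whose highest nucleotide lay before 300 nt in both profiles, it was the same nucleotide in 63.7% (61.9% to 65.5%), so the intervals overlap.

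Several of the genes with the most distal signal combined a distal and a near site. SED1, a cell wall glycoprotein, had the distal site with the most signal summed over both profiles, 247 RPM (4018 reads) in ubp8Δ and 1159 RPM (2932 reads) in rpb4Δ at 309 nt. In ubp8Δ alone the distal sites of HST2, RPL8A, HAC1 and YDR524C-B stood higher. In ubp8Δ the highest position was at 48 nt, with 4528 reads, and in rpb4Δ it was at 309 nt, where the site at 48 nt had 1132 reads. The SED1 distal share was 49.7% in ubp8Δ (49.1% to 50.3%) and 69.0% in rpb4Δ (68.2% to 69.8%), a difference of 19.3 percentage points, and its total window signal was 3.11-fold higher in rpb4Δ.

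RPL8A, a protein of the large ribosomal subunit and a paralog of RPL8B, was divided between near and distal ends. The site at 58 nt had 5430 reads in ubp8Δ and 1220 in rpb4Δ, and the site at 384 nt had 6157 and 749. The highest position was thus distal in ubp8Δ and near in rpb4Δ, with a distal share of 72.2% and 61.9%. HSP150, an O-mannosylated cell wall protein, peaked at 314 nt in both, with 2908 of 8353 reads in ubp8Δ (34.8%) and 563 of 2420 in rpb4Δ (23.3%), and had further sites at 257 to 279 nt just outside the zone. RPB10, a subunit shared by RNA polymerases I, II and III, shows how the border cuts a group of sites: both profiles were highest at 297 nt (3430 and 773 reads), and only the site at 305 nt (1352 and 332 reads) counted as distal.

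HST2, a cytoplasmic NAD-dependent deacetylase of the Sir2 family, had a single dominant distal site, with 437 RPM at 323 nt (7116 of 14905 reads) in ubp8Δ, against 133 RPM (337 of 738 reads) in rpb4Δ. Its window signal in rpb4Δ was 0.319 of that in ubp8Δ, while the distal share was 71.3% in ubp8Δ and 72.8% in rpb4Δ. The small ORFs YDR524C-B and YBR085C-A, which encode proteins of unknown function, peaked at 337 nt and 373 nt in both strains. YDR524C-B had a distal share of 75.3% in ubp8Δ and 67.3% in rpb4Δ, and YBR085C-A of 97.4% and 98.3%.

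**Figure D2:**
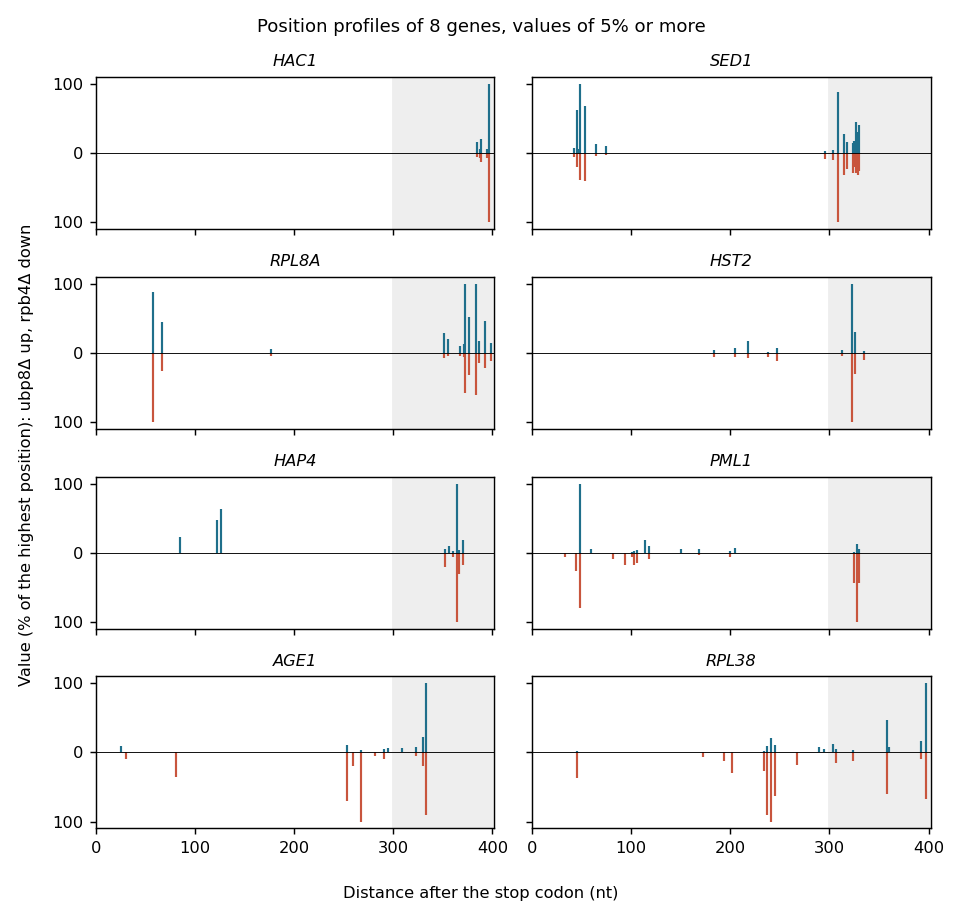
Values of at least 5% of the highest position (y axis) along the 400 nt after the stop codon (x axis) in 8 genes, ubp8Δ upwards and rpb4Δ downwards, with the distal zone shaded. HAC1 and HST2 keep the same highest nucleotide in both strains, whereas SED1, RPL8A, PML1, AGE1 and RPL38 change between a near and a distal one. HAP4 keeps its distal peak at 364 nt and has its near sites in ubp8Δ alone.

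A site that reached 20% in one profile often did not in the other. In ubp8Δ 773 sites of 319 genes reached it and in rpb4Δ 745 sites of 332 genes. The 390 sites that reached it in both are 50.5% of the ubp8Δ sites, 52.3% of the rpb4Δ sites and 34.6% of all 1128 (31.9% to 37.4%). Sites nearer than 300 nt chosen in the same way from all 2811 ORFs reached 20% in both more often, in 47.9% of 15562 (47.2% to 48.7%). Within the 414 genes the same share was 36.3% of 2435 sites nearer than 300 nt (34.4% to 38.2%), an interval that overlaps that of the distal sites. Where a distal site missed the same nucleotide, a neighbour sometimes reached the value: counting the highest value within 5 nt in the other profile raised the share from 34.6% to 53.5%.

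Depth stood beside this count. The sites that reached 20% in ubp8Δ rested on 84 reads at the median and never fewer than 10, whereas those in rpb4Δ rested on 15, and 245 of the 745 had fewer than 10. With at least 10 reads required at the site, 40.8% of the distal sites and 53.7% of 13900 nearer sites (52.8% to 54.5%) reached 20% in both. These nearer sites are again those of all 2811 ORFs and not of the 414 genes, so the gene sets differ. Of the 383 sites that reached 20% only in ubp8Δ, 200 had no read in rpb4Δ. At their ubp8Δ share 156 of these would have had 3 or more reads there. Of the 355 that reached it only in rpb4Δ, 117 had no read in ubp8Δ, and all 117 would have had 3 or more at their rpb4Δ share. Each share came from the profile that chose the site, so selection raised it. With at least 169 reads in every ubp8Δ window of the 414 genes, the count of 117 was also nearly fixed beforehand. Nothing is therefore read from either count. The sites that reached 20% in both profiles rested on medians of 154 and 23 reads in ubp8Δ and rpb4Δ. Those that reached it only in ubp8Δ had 44 reads and those only in rpb4Δ had 10, each in its own profile.

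**Figure D3:**
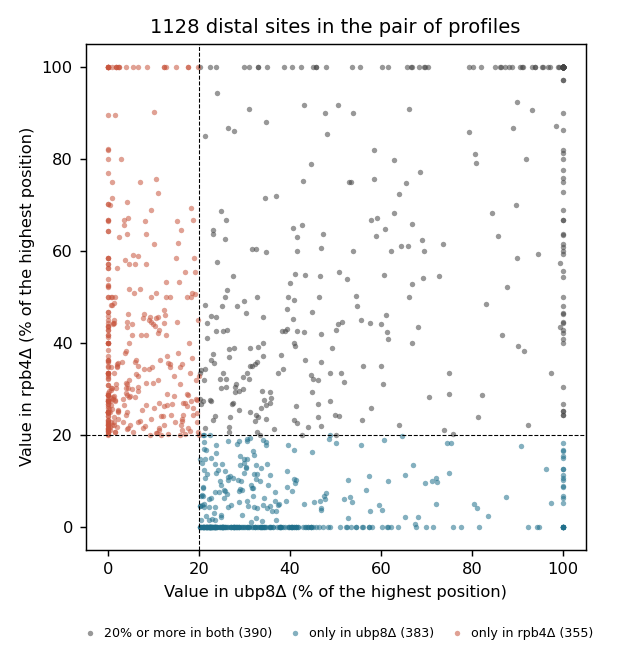
Value of each of the 1128 distal sites in ubp8Δ (x axis) and rpb4Δ (y axis), in percent of the gene's highest position, with the selection value of 20% as dashed lines. 390 sites lie beyond both lines, 383 only beyond that of ubp8Δ and 355 only beyond that of rpb4Δ, and the empty corner is the part the rule left out.

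The sites nearest to the threshold were low in reads. Just inside, MTC5 had a site at 303 nt with 15.7% in ubp8Δ (18 reads) and 20% in rpb4Δ (2 reads), and SPT15, the TATA-binding protein gene, had one at 316 nt with 19.9% (8 reads) and 20% (2 reads). Just outside, VPS62 had 6.64% (17 reads) and 19.98% (6 reads) at 367 nt, and SVL3 had 3.03% (18 reads) and 19.97% (4 reads) at 361 nt. In all, 188 sites had a highest value from 20% to under 25%, and 239 further nucleotides of the zone lay from 15% to under 20%.

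The distal share was higher in rpb4Δ in some genes and lower in others. Over the 414 genes its median difference, rpb4Δ minus ubp8Δ, was 1.13 percentage points (-0.86 to 2.37, an interval that includes 0), and it was 0 over all 2811 ORFs. The share was higher in rpb4Δ in 219 genes, lower in 194 and equal in 1. It was at least 10 points higher in rpb4Δ in 103 of the 414 genes (24.9%), where 3.84% of all 2811 ORFs were, and at least 10 points lower in 78 (18.8%), where 2.95% were. A gene had to have distal signal to enter the list, so nothing is read from the larger counts. The side on which a gene was chosen also sets its sign: the median difference was -2.90 points in the 319 genes with a site in ubp8Δ and 4.28 points in the 332 with a site in rpb4Δ. In bulk cultures, fewer cells that use a site and less use of it in every cell cannot be told apart.

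Fisher's exact test, two-sided, on the recovered distal and near reads of the pooled libraries, with Benjamini-Hochberg adjustment over all 2811 ORFs at 0.05, called a higher distal share in rpb4Δ in 124 of the 414 genes (8.15% of all ORFs were called in this direction) and a lower one in 94 (6.87% of all ORFs). This test compares those pooled libraries and not the strains, because their replicates cannot be separated. The genes were chosen on the distal signal that it tests, so nothing is read from these counts beside those of all ORFs. Among the 231 genes with at least 100 reads in both windows, 147 differed by less than 10 points. Of the others, 46 were at least 10 points higher in rpb4Δ and 38 at least 10 points lower. No share over all ORFs of this depth stands beside these counts, so nothing is read from them either.

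**Figure D4:**
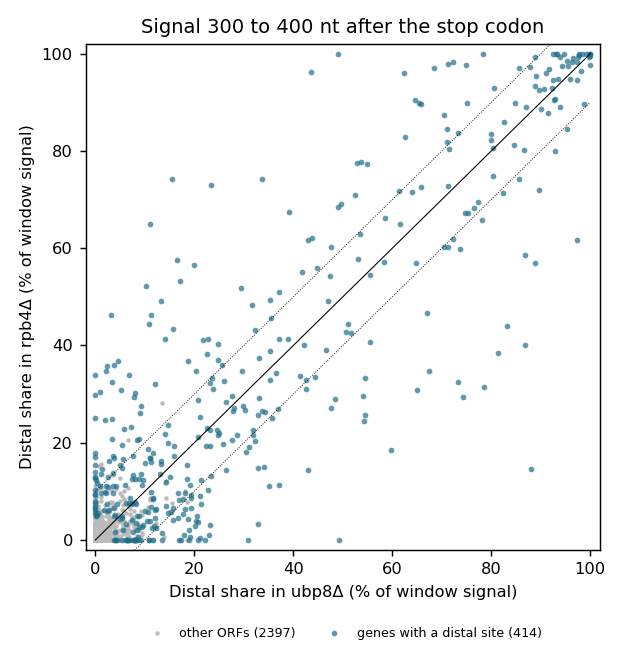
Distal share of the window signal in ubp8Δ (x axis) and rpb4Δ (y axis) for the 414 genes with a distal site and the 2397 other ORFs, with the line of equality and dotted lines 10 percentage points from it. Points lie on both sides of the line, 103 of the 414 genes above the upper dotted line or on it and 78 below the lower one or on it.

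The 5 largest differences in each direction among the 339 genes with at least 50 reads in both windows were chosen by their size and are given as values, those towards rpb4Δ first. SEN15, a subunit of the tRNA splicing endonuclease, had a distal share of 43.6% in ubp8Δ (38.2% to 49.1%, 319 reads) and 96.2% in rpb4Δ (87.0% to 98.9%, 52 reads). Its peak was at 374 nt in both, and its 6 near sites, at 124 to 239 nt with 20 to 30 reads each in ubp8Δ, had no read in rpb4Δ. At 125 nt, beside the site at 124 nt, ubp8Δ had 11 reads and rpb4Δ had 2. HAP4, the activating subunit of the transcription factor complex for respiratory genes, had a share of 48.9% (1398 reads) and 100% (51 reads, lower bound 93.0%). Its sites at 85, 122 and 126 nt, with 109, 227 and 300 reads in ubp8Δ, had none in rpb4Δ, and its window signal in rpb4Δ was 0.235 of that in ubp8Δ.

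PML1, a subunit of the complex that retains unspliced pre-mRNA in the nucleus, had a share of 10.2% in ubp8Δ (1281 reads) and 52.2% in rpb4Δ (138 reads). Its site at 328 nt had 82 reads in ubp8Δ, 12.7% of the site at 48 nt, and 34 reads in rpb4Δ, where it was the highest. NUP192, a subunit of the inner ring of the nuclear pore, had a share of 33.6% (2057 reads) and 74.3% (187 reads), and its near peak at 212 nt had 297 reads in ubp8Δ and none in rpb4Δ. The small ORF YER138W-A, of unknown function and with a paralog, had 19.8% and 56.5%, with 43 reads at 338 nt in rpb4Δ and none in ubp8Δ.

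Among the same 339 genes the largest differences the other way were in AGE1, RPL38, USB1, HSH49 and PPZ1. AGE1, a GTPase-activating protein for ADP-ribosylation factors, had a distal share of 78.4% in ubp8Δ (422 reads) and 31.5% in rpb4Δ (73 reads), with the peak at 333 nt in ubp8Δ and at 268 nt in rpb4Δ, where the site at 333 nt still stood at 90.01% of it. RPL38, a protein of the large ribosomal subunit, had 74.2% (1813 reads) and 29.4% (187 reads), and its peak was at 397 nt in ubp8Δ and at 241 nt in rpb4Δ. USB1, a phosphodiesterase that trims the 3′ end of U6 snRNA, had 59.8% (2006 reads) and 18.5% (227 reads), and its peak was at 323 nt in ubp8Δ and at 126 nt in rpb4Δ.

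HSH49, a splicing factor of the U2 snRNP, had a share of 83.1% (843 reads) and 44.1% (143 reads) and kept its peak at 386 nt. Its site at 238 nt had 7 reads in ubp8Δ and 29 in rpb4Δ. PPZ1, a protein phosphatase that regulates potassium transport, had 67.4% (366 reads) and 34.8% (66 reads), and its site at 323 nt had 121 reads in ubp8Δ and 3 in rpb4Δ. As in the 5 genes above, the rpb4Δ values rest on far fewer reads.

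The ratio of total signal between the strains was close to that of all ORFs. The genes' median window signal was 44.9 RPM in ubp8Δ (39.2 to 52.15) and 45.1 RPM in rpb4Δ (40.4 to 50.6), lower than the 63.1 and 64.8 RPM of all 2811 ORFs. The median ratio of rpb4Δ to ubp8Δ was 1.05 (0.97 to 1.10) in the 414 genes and 1.05 over all ORFs (1.03 to 1.08). The ratio was at least 2-fold higher in 56 of the 414 genes (13.5%), beside 14.3% of all ORFs, and at least 2-fold lower in 49 (11.8%), beside 12.2%, so both shares were near the background. The part of the signal that fell inside the ORF was higher, with a median of 13.2% in ubp8Δ (10.5% to 16.0%) and 4.46% in rpb4Δ (3.17% to 5.89%), beside 8.29% and 2.44% over all ORFs. The median ORF length was 1234 nt (1128 to 1308), beside 1194 nt over all ORFs (1158 to 1233).

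The base at the site was C in 38.9% of the 1128 sites, T in 39.9%, G in 21.2% and A in none, as the placement on the last base other than A requires. An A followed directly in the genome at 904 sites (80.1%). It did so at 83.2% of the sites nearer than 300 nt and at 27.4% of all 199083 nucleotides other than A at 300 to 400 nt of the same ORFs. Reads cut within such As are placed on the base before them. Placement alone can therefore raise the share at sites, and no base preference is read from it. The run of As was short, with a median of 1 and at most 6, and 74.4% of the sites had a run of 1 to 3. HAC1 shows the usual form (TA), SED1 and HSP150 a longer one (CAAA and GAAA), and IMO32 has no A after its C.

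Elements of the TATATA type were more frequent upstream of distal sites than over the zone of all 2811 ORFs. They were less frequent than at the nearer sites of those ORFs. At least 1 of the 3 spellings, searched on the sense strand only and with overlaps allowed, lay 10 to 70 nt upstream of 41.4% of the distal sites (38.6% to 44.3%), of 49.6% of the sites nearer than 300 nt (48.8% to 50.4%) and of 10.4% of all nucleotides other than A in the zone (10.3% to 10.6%). TATATA alone was found at 29.3%, 30.3% and 6.03%, TACATA at 11.0%, 15.7% and 2.90%, and TATGTA at 12.1%, 15.3% and 2.74%. The gap between distal and nearer sites was thus in TACATA and TATGTA, whereas the intervals of TATATA overlapped. Neighbouring sites of 1 gene share most of their upstream sequence, so these intervals are too narrow. With 1 site per gene, 38.6% of the distal sites had any of the 3 spellings. The nearer sites came from all 2811 ORFs and the distal sites from 414 genes, so the gene sets differ. No share for the nearer sites of the 414 genes alone stands beside these values. Whether the gap goes with distance or with the genes was not tested.

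The elements were densest 30 to 39 nt upstream of the distal sites, at 1.69 elements per 100 sites per nucleotide, and fell to 0.133 within 0 to 9 nt. At nearer sites the maximum was in the same bin, at 2.11, and at all nucleotides other than A of the zone the bin had 0.255. In the 9 named genes with an element it lay 15 to 47 nt upstream, with PUS2 at 15 nt and the 8 printed ones from 31 nt on. AATAAA was found 10 to 70 nt upstream of 9.57% of the distal sites (7.99% to 11.4%), beside 12.96% of nearer sites and 6.73% of zone nucleotides. AAAAAA was found at 7.27%, 9.72% and 8.71%, and TTTTTT at 8.95%, 9.50% and 11.0%, so over this whole stretch neither run was more frequent at distal sites than in the zone. Close to the site their density depended on the distance. AAAAAA had 0.0443 elements per 100 sites per nucleotide at 0 to 9 nt upstream of distal sites and 0.5496 at 10 to 19 nt, beside 0.261 and 0.362 in the zone. TTTTTT had 0.612 and 0.142, beside 0.447 and 0.426.

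**Figure D5:**
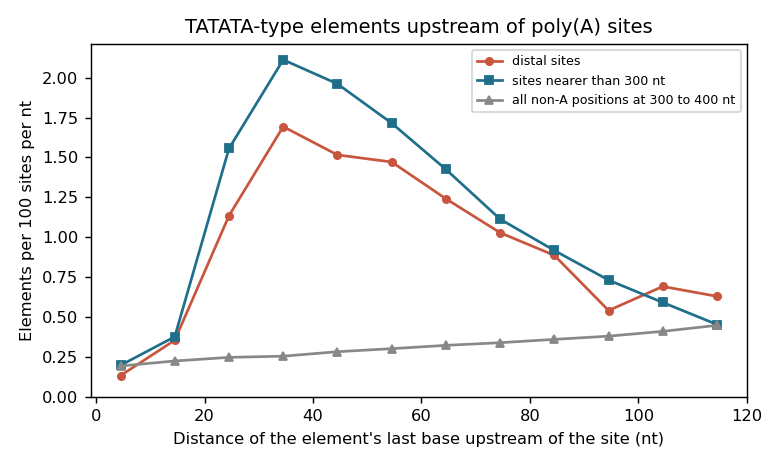
Number of TATATA-type elements per 100 sites per nucleotide (y axis) against the distance of the element's last base upstream (x axis, bins of 10 nt) for the 1128 distal sites, the 15562 sites nearer than 300 nt and all nucleotides other than A at 300 to 400 nt. Both kinds of site have their maximum at 30 to 39 nt, at 1.69 and 2.11, and the zone nucleotides stay between 0.193 and 0.448.

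The element share differed among the distal sites. It was 49.0% in the 390 sites that reached 20% in both profiles (44.0% to 53.9%). In the 738 that reached it in only 1 it was 37.4% (34.0% to 40.9%). It was 61.1% in the 167 sites of the 45 genes without a nearer site (53.5% to 68.1%). In the 961 sites of the 369 genes with one it was 38.0% (35.0% to 41.1%). It was 28.8% in the 364 sites inside a gene on the opposite strand and 47.4% in the other 764. Sites of 1 gene share upstream sequence, so the intervals of these splits are too narrow, and the differences were not tested. Over genes, 172 of 414 (41.5%) had at least 1 distal site with an element.

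Distal sites lay less often than the zone as a whole inside a gene of the opposite strand. By the R64 annotation, 364 sites (32.3%, 29.6% to 35.1%) in 169 genes lay in such a gene, against 55.2% of all zone nucleotides other than A. An opposite-strand gene overlapped the 400 nt after the stop codon in 46.6% of the 414 genes (41.9% to 51.4%) and in 59.8% of the 2811 ORFs (58.0% to 61.6%). Among the genes described, the sites of SEN15, PML1, RPL38 and HSH49 lay inside YMR060C, YLR015W, YLR324W and YOR320C. The next listed feature on the same strand lay at a median distance of 2075.5 nt, beside 2013.5 nt over all ORFs, and it lay less than 800 nt away for 25.6% of the genes beside 25.0%.

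A few sites fell in annotated sequence that the profiles do not list. In R64, 8 sites of 2 genes, YHR131C and RTS1, lay inside a same-strand gene (YHR130C and YOR015W), and 5 sites lay in a transposon or long terminal repeat. Without them 1115 sites in 410 genes were left. A 3′ end is assigned to an ORF by its position alone, and whether the RNA began at that ORF was not tested.

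Of 28 genes for cleavage, polyadenylation and termination factors, 16 met the criteria on signal and neighbours and 2 (12.5%) had a distal site, near the 14.7% of all ORFs, and the median distal share of the 16 was 0% in both strains. PTI1, a component of the cleavage and polyadenylation factor, had 6 distal sites and a distal share of 11.2% in ubp8Δ (634 reads) and 46.2% in rpb4Δ (160 reads). Its site at 333 nt was the highest in rpb4Δ with 28 reads and had none in ubp8Δ, where the highest was at 174 nt. NAB3, the RNA-binding subunit of the Nrd1 complex, had 5 distal sites with 24 to 44 reads in ubp8Δ and none in rpb4Δ, where its window held only 36 reads, and its share was 35.1% and 11.2%.

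Of 12 Pol II subunit genes, all 12 met the criteria and 3 had a distal site, where 14.7% of all ORFs had one. The 12 include RPB4, whose ORF is deleted in rpb4Δ and whose window still held 30.08 RPM in that strain. With so few genes nothing is read from the count. The list's median distal share was 1.68% in ubp8Δ and 0% in rpb4Δ. RPB2, the second largest subunit, had sites at 339 and 346 nt with 185 and 177 reads in ubp8Δ and 45 and 71 in rpb4Δ, and a share of 61.4% and 71.7%. RPB7, the partner of Rpb4, had a single site at 302 nt with 119 reads in ubp8Δ (32.1% of the highest position, which was at 163 nt) and 7 reads in rpb4Δ (4.25%), and a share of 7.66% and 1.63%. RPB10 is described above. Of 19 genes for elongation factors and the SAGA deubiquitination module, 18 were found by name and 10 met the criteria. Of these 10, 1 had a distal site, beside the same 14.7% of all ORFs, and again nothing is read from the count. This list's median distal share was 1.14% in ubp8Δ and 1.63% in rpb4Δ. SGF11, which ties Ubp8 to SAGA, peaked at 358 nt in both strains (207 and 65 reads), with a share of 71.1% in ubp8Δ (66.8% to 74.98%) and 81.8% in rpb4Δ (74.98% to 87.1%).

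Among ribosomal protein genes, taken by name, 4 of 109 that met the criteria (3.67%, beside 14.7% of all ORFs) had a distal site: RPL8A, RPL15A, RPL38 and RPL6B. Of 34 mitochondrial ribosomal protein genes 1 (2.94%) had one, MRPL22, with 126 reads at 301 nt in ubp8Δ and 3 in rpb4Δ.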

How the data were processed

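The 3′ READS profiles of ubp8Δ and rpb4Δ were used, each pooled by the authors from 2 biological replicates. Per the study's methods, leading Ts were trimmed, reads without a T were dropped, the next 17 bases were aligned to sacCer3 with Bowtie (version not given in the sources used here) without mismatches and uniquely, and only reads that carried As beyond those of the genome were kept. The authors scaled every position to the maximum of its feature, so the deposited values run to 100 (in percent, 2 decimals). The deposited window, highest-position and ORF values are in RPM.

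Reads were recovered as multiples of the common RPM step: all 4917 highest-position values under 60 RPM in ubp8Δ and all 4611 in rpb4Δ were whole to within 0.1 read. The distal share was the sum of values at 300 to 400 nt over the sum at 1 to 400 nt. Medians have 95% order-statistic intervals and shares 95% Wilson intervals. Coordinates of 2806 of the 2811 ORFs (412 of the 414 genes) equal those of R64, from which RefSeq annotation and sequences were read. Named genes were those of the 10 sites with the most RPM, the 8 with the largest lower distal share (100 reads or more in both), the 5 with the largest difference each way (50 or more), list genes with a site, and the 2 sites on each side of the threshold. The sites, genes, lists and rules were chosen with earlier results of these data known. Functions were tested on simulated data. Python 3.11.15, numpy 2.4.6, pandas 2.3.3, scipy 1.17.1 and matplotlib 3.10.9 were used.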

Additional observations from a re-analysis of the deposited data

How the results depend on the processing

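The number of sites depends on the rule. Against 1128 sites in 414 genes, a value of 10% gave 1782 sites, a value of 50% gave 466 sites in 251 genes, a zone of 250 to 400 nt gave 2211 sites in 720 genes, a window total of 50 RPM gave 386 sites in 140 genes, no listed feature on either strand gave 674 sites in 223 genes, and joining sites at most 10 nt apart gave 625. The other alternatives stayed within 1.5 times of both counts. The percent of sites at 20% in both was 34.6% and became 38.4% when both selection and agreement used 50%, 53.5% within 5 nt and 40.8% with at least 10 reads at the site. With a window total of 50 RPM the median distal share was 32.9% in ubp8Δ and 32.6% in rpb4Δ. The median difference stayed between 0.78 and 1.24 percentage points, within its interval. The percent of sites with an element was 51.5% for 0 to 100 nt upstream, 29.3% for TATATA alone and 37.1% for sites not followed by a genomic A. Over all 2811 ORFs the difference of 10 points was met by 108 ORFs higher and 83 lower in rpb4Δ, and Fisher's exact test on reads, added after the data had been seen, called 229 and 193. Summing each of the 10 sites with the most signal over 5 nt on both sides raised all 20 of its shares of window reads beyond their counting interval.

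No paired analysis was possible because the 2 replicates of each strain are pooled in 1 profile, and leaving out a replicate was not run for that reason. Depth limits rpb4Δ most, where 245 of 745 sites rest on fewer than 10 reads.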
